A study of Mus musculus with 8 samples.

Results

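Epithelial cells of the skin make antimicrobial and acute phase proteins, and 9 genes of this kind were read in cultured mouse keratinocytes (KCs): Lcn2, Slpi, Saa1, Saa2, Saa3, Defb1, Camp, Ltf and Pglyrp1. They are 9 of the 41457 genes of the deposited tables and were matched by symbol. Poly(A) RNA had been sequenced from KCs of the tail epidermis of adult wild-type C57BL/6 mice (C57BL/6J in the text of the study), 4 samples grown for 1 week and 4 grown for 3 weeks. All were untreated and were kept in serum-free medium of low calcium, without the layers of skin. The genes were chosen by their known roles and on their reads and RPKM at 1 and 3 weeks, where a single sample can dominate the mean, so the differences between the groups are given for them as a description without a test.

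Antimicrobial proteins of the epidermis act at the surface of the skin. Some damage the membranes of microbes, as β-defensins and cathelicidin do, some withhold iron, as lipocalin-2 and lactoferrin do, and some bind the bacterial wall or restrain proteases. Acute phase proteins such as the serum amyloid A proteins are made mainly in the liver, and several are also made by epithelia. In KCs, many of these genes are known to respond to the cytokines IL-1, IL-17, IL-22 and IL-36 through NF-κB, IκBζ, STAT3 and the C/EBP factors.

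Between 13896807 and 20026084 reads per sample lay on exons. From 81.6% to 84.7% of them mapped to a single place, and from 1.48% to 2.38% of the reads on genes were intronic, with the highest share in 3 weeks replicate 4. Of 10 KC markers, 10 were detected, with a summed level of 13730 to 16036 RPKM in the 1-week and of 8649 to 10268 RPKM in the 3-week samples. Most of it came from Krt5 (mean 6170 RPKM at 1 week and 2207 RPKM at 3 weeks) and Krt14 (6941 and 5283 RPKM). Krt15, of the same list, averaged only 1.14 RPKM over all samples. RPKM values correct the reads on a gene for the length of its exons and for the mapped reads of the sample, and levels of different genes are compared here only in this unit. Names of the deposited tables also give a preparation number, of which 46, 49 and 90 occur at both times. As the libraries are bulk RNA, more cells of a type and more RNA per cell cannot be told apart.

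Of the 9 genes, 5 had enough reads to enter the fit over all genes (Lcn2, Ltf, Slpi, Defb1 and Pglyrp1), while Saa1, Saa2, Saa3 and Camp did not. All 5 had their highest level of the 8 samples in the same library, 3 weeks replicate 4. That library was the highest of the 3-week samples for 33.6% of all tested genes. As the genes were chosen with such a sample known, nothing is read from this count. In the other 3-week samples Lcn2 was above the 1-week levels, Ltf, Pglyrp1 and Slpi were below them, and Defb1 overlapped them. These patterns are shown in the plot of RPKM by sample.

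**Figure D1:**
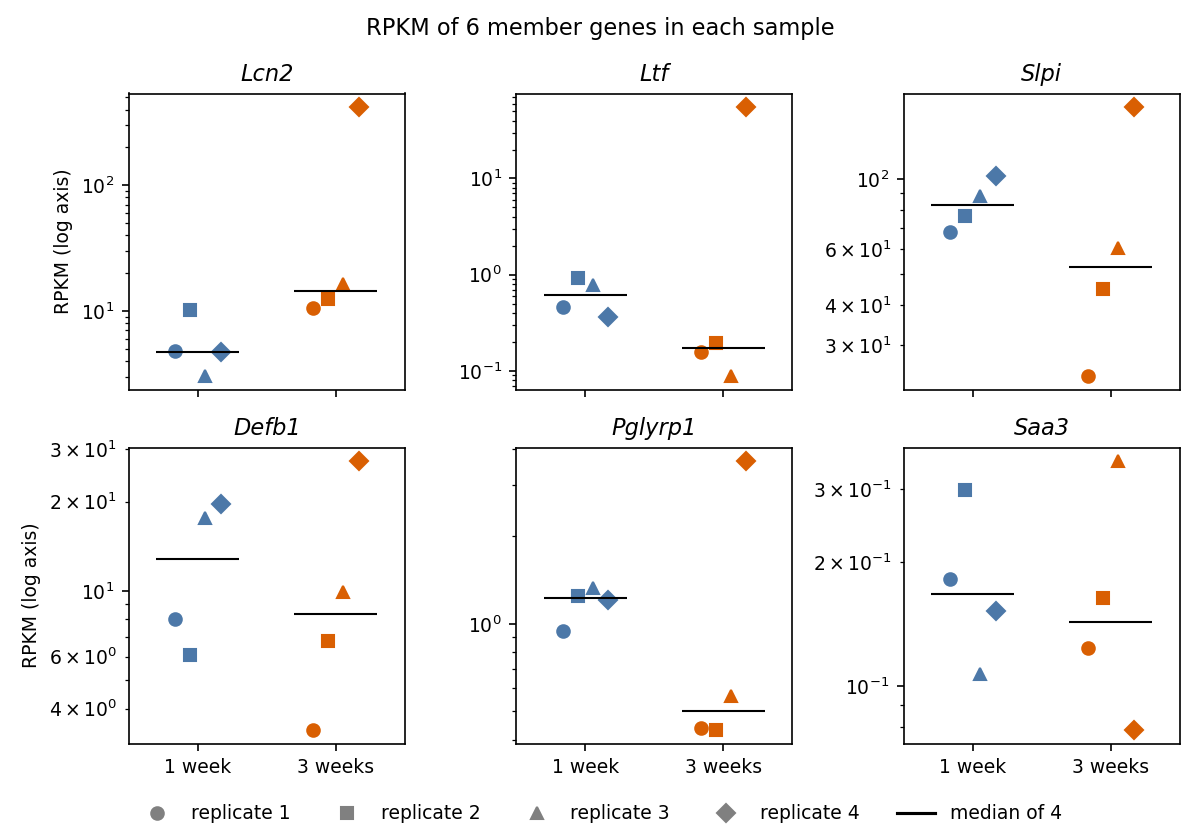
RPKM (log axis, a separate scale for each gene) of 6 genes in each of the 4 samples at 1 week and the 4 at 3 weeks, with a symbol for each replicate and a line at the group's median. Replicate 4 at 3 weeks is the highest of the 8 samples for Lcn2, Ltf, Slpi, Defb1 and Pglyrp1. It is the lowest for Saa3, where it rests on 3 reads.

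The first 2 genes encode secreted proteins that withhold iron. Lcn2 encodes lipocalin-2, which binds the siderophores with which bacteria take up iron, and its row covers chromosome 2, 32384633 to 32388252, minus strand, on GRCm38. At 1 week the 4 samples had 4.77, 10.2, 3.03 and 4.67 RPKM. At 3 weeks they had 10.5, 12.5, 16.2 and 419 RPKM, the last from 16150 reads on exons. All 3-week samples were above all 1-week samples, though replicate 1 at 3 weeks exceeded replicate 2 at 1 week only narrowly. The mean was 5.67 ± 3.14 RPKM in the 1-week samples and 114.6 ± 203 RPKM in all 3-week samples (SD, n = 4 each). Without 3 weeks replicate 4 the 3-week mean was 13.1 ± 2.91 RPKM (SD, n = 3), 2.30 times the mean at 1 week. Replicate 4 was 25.8 times the highest of the other 3-week samples.

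Ltf encodes lactoferrin, an iron-binding protein of milk, mucosal secretions and neutrophil granules (chromosome 9, 111019271 to 111042767, plus strand). It was under 1 RPKM in 7 of 8 samples. At 1 week it had 0.457, 0.929, 0.787 and 0.361 RPKM, from 22 to 66 reads. At 3 weeks replicates 1 to 3 had 0.156, 0.194 and 0.0882 RPKM, from 5 to 11 reads, while replicate 4 had 55.4 RPKM from 2806 reads. The first 3 of these lay below every 1-week sample, with a mean of 0.146 ± 0.0535 RPKM (SD, n = 3) against 0.634 ± 0.268 RPKM (SD, n = 4), and replicate 4 was 59.6 times the highest 1-week sample. It was also 285 times the highest of the other 3-week samples. All reads on Lcn2 and Ltf mapped to a single place, and 1240 of the 2989 reads on Ltf crossed a junction between exons.

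Slpi encodes the secretory leukocyte protease inhibitor, which blocks neutrophil elastase and has antimicrobial activity of its own (chromosome 2, 164354070 to 164389095, minus strand). It was the most abundant of the 9 genes at 1 week, with 67.8, 76.6, 88.4 and 102 RPKM. At 3 weeks it had 23.9, 45.1, 60.6 and 169 RPKM. Replicates 1 to 3 at 3 weeks were below all 1-week samples on the RPKM scale, by a ratio of means of 1.94, and replicate 4 was 1.65 times the highest 1-week sample. After TMM normalization, which corrects for the composition of the libraries, the lower 3-week values overlapped those at 1 week. The region of Slpi also contains Mir7678 on the same strand.

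Defb1 encodes β-defensin 1, a membrane-active peptide of many epithelia (chromosome 8, 21776599 to 21795185, plus strand). Its levels were 8.01, 6.07, 17.7 and 19.7 RPKM at 1 week, and 3.38, 6.77, 9.91 and 27.4 RPKM at 3 weeks. The groups overlapped with and without replicate 4, and the 1-week samples fell into a lower and a higher pair. Pglyrp1 encodes peptidoglycan recognition protein 1, which binds bacterial wall (chromosome 7, 18871331 to 18890459, plus strand). It had 0.944, 1.24, 1.33 and 1.20 RPKM at 1 week. At 3 weeks it had 0.438, 0.431, 0.563 and 3.63 RPKM, the last from 98 reads. Replicates 1 to 3 at 3 weeks lay below every 1-week sample by a ratio of means of 2.47, and replicate 4 was 2.74 times the highest 1-week sample.

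The serum amyloid A genes lie close together on chromosome 7 and encode apolipoproteins of high-density lipoprotein that are induced in inflammation. Saa3, the form made by macrophages and epithelia, had between 4 and 16 reads at 1 week and between 3 and 15 at 3 weeks. Levels of 0.107 to 0.298 RPKM were found at 1 week and of 0.0784 to 0.350 RPKM at 3 weeks, so the groups overlapped fully. Replicate 4 at 3 weeks, where Lcn2 and Ltf were highest, had the lowest level of Saa3, but from only 3 reads. At such counts the samples cannot be ranked for Saa3. Saa1 had 5 reads in 3 weeks replicate 4, of which 3 mapped to a single place, and 0 reads in the other 7 samples. Saa2 had 1 read in all, in 3 weeks replicate 3, and it did not map to a single place. Of all runs of 59 bases, the read length of the study, in the transcript Saa1-201, 10.2% also occur in a Saa2 transcript, so a part of the reads on either gene cannot be assigned. For Saa1 in a library without a read, the limit of 3 reads corresponds to between 0.0588 and 0.0843 RPKM.

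Camp encodes the cathelicidin precursor, from which an antimicrobial peptide is cut (chromosome 9, 109847379 to 109849617, minus strand). It had 0 reads in all 8 samples. A level of 3 reads would correspond to between 0.192 and 0.276 RPKM, depending on the sample, and levels under this were not detectable. These limits cover counting error only.

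At 1 week the order of the median levels was Slpi (82.5 RPKM), Defb1 (12.8), Lcn2 (4.72), Pglyrp1 (1.22), Ltf (0.622) and Saa3 (0.167). Only Defb1 and Lcn2 overlapped with their neighbour in this order. At 3 weeks without replicate 4, Lcn2 (12.5 RPKM) stood above Defb1 (6.77 RPKM) without overlap, and Saa3 and Ltf overlapped. In replicate 4 itself the order was Lcn2, Slpi, Ltf, Defb1 and Pglyrp1.

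The fit over all 12590 tested genes (edgeR, 3 weeks over 1 week) gave log2 fold changes of 4.44 ± 1.30 for Lcn2, 4.56 ± 1.89 for Ltf, 0.22 ± 0.67 for Pglyrp1, 0.03 ± 0.61 for Defb1 and -0.02 ± 0.49 for Slpi (± SE). Of the 5 genes that were tested, 1 passed the adjusted threshold of 0.05 in this fit, against 32.8% of all tested genes. Of the same 5, 1 (Lcn2 in both cases) had groups that did not overlap in RPKM, against 37.0% of all tested genes. As these values chose the genes, nothing is read from the counts. Lcn2 did not pass in limma, with a block by replicate or preparation, or with any 1-week sample left out. DESeq2 gave Lcn2 no p, so it could not pass there, and its log2 fold change in DESeq2 was 4.48 ± 1.23 (SE). Without 3 weeks replicate 4 the values were 1.40 ± 0.38 for Lcn2, -1.92 ± 0.44 for Ltf, -1.10 ± 0.27 for Pglyrp1, -0.73 ± 0.52 for Defb1 and -0.74 ± 0.32 for Slpi. Ltf thus had the largest positive value of the 5 with all samples and the largest negative one without replicate 4. The median of all tested genes was 0.03 in the fit with 8 samples and -0.16 on the log2(RPKM + 0.1) scale. Among called genes, 1981 were higher and 2146 lower in edgeR, against 1313 and 3089 in limma on that scale, which differs from the edgeR fit in both the test and the scaling.

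**Figure D2:**
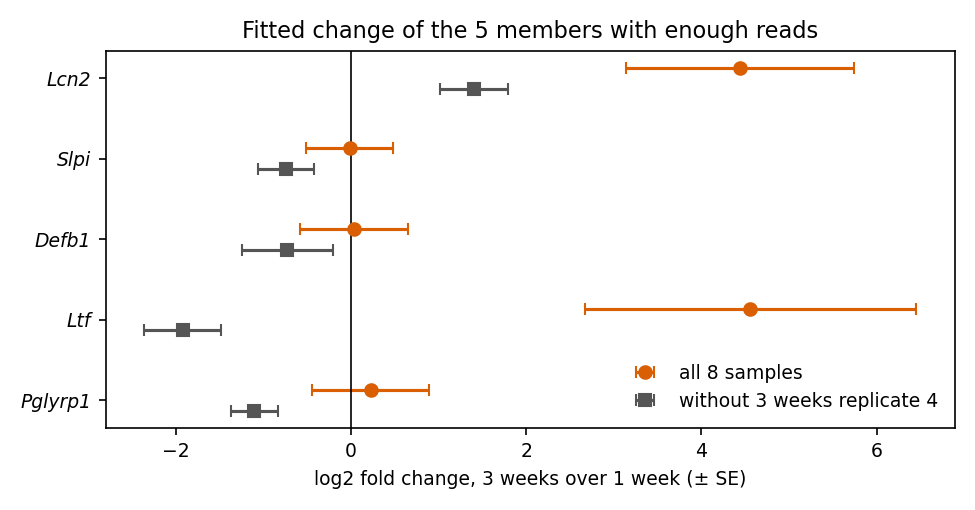
Log2 fold change of 3 weeks over 1 week with its SE for the 5 genes with enough reads, from edgeR with all 8 samples (circles) and without 3 weeks replicate 4 (squares). Ltf lies at 4.56 with that sample and at -1.92 without it, and Lcn2 lies above 0 in both.

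Preparations 46, 49 and 90 were sampled at both times, which allowed the ratio of 3 weeks over 1 week to be read within a preparation. For Lcn2 it was 2.20 in preparation 46, 4.12 in preparation 49 and 89.8 in preparation 90. For Ltf it was 0.340, 0.246 and 153, in the same order. The ratio for Pglyrp1 was 0.464, 0.324 and 3.02. Slpi had 0.353, 0.510 and 1.65, and Defb1 had 0.422, 0.383 and 1.39. Lcn2 was thus higher at 3 weeks in all 3 preparations, whereas the other 4 genes were lower in preparations 46 and 49 and higher in preparation 90. At 1 week, preparation 90 (replicate 4) had the highest level of Slpi and Defb1 but the lowest of Ltf.

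The distance of 3 weeks replicate 4 from the other 3-week samples was then set against that of all tested genes, as the log2 CPM (reads scaled to the same library size) in that library minus the highest of the other three. It was the highest 3-week sample for 33.6% of the 12590 tested genes, and by more than 2-fold for 646 genes (5.13%). The other 3-week samples stood out by more than 2-fold for 13, 7 and 78 genes. Ltf had the largest distance of all tested genes (7.92 on the log2 scale). The next was Cp (4.59), which encodes ceruloplasmin, a copper-carrying ferroxidase and acute phase protein, and Lcn2 (4.48) was at rank 3. Pglyrp1 (2.37) was at rank 94, Slpi (1.26) at rank 420 and Defb1 (1.25) at rank 432. As these genes of interest were chosen with such a sample known, their ranks are a description and not a test. Among the 10 highest were also Slc6a14, an amino acid transporter, the interferon-induced genes Oas3 and Ifi44, and Sprr2d, a gene of the cornified envelope.

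**Figure D3:**
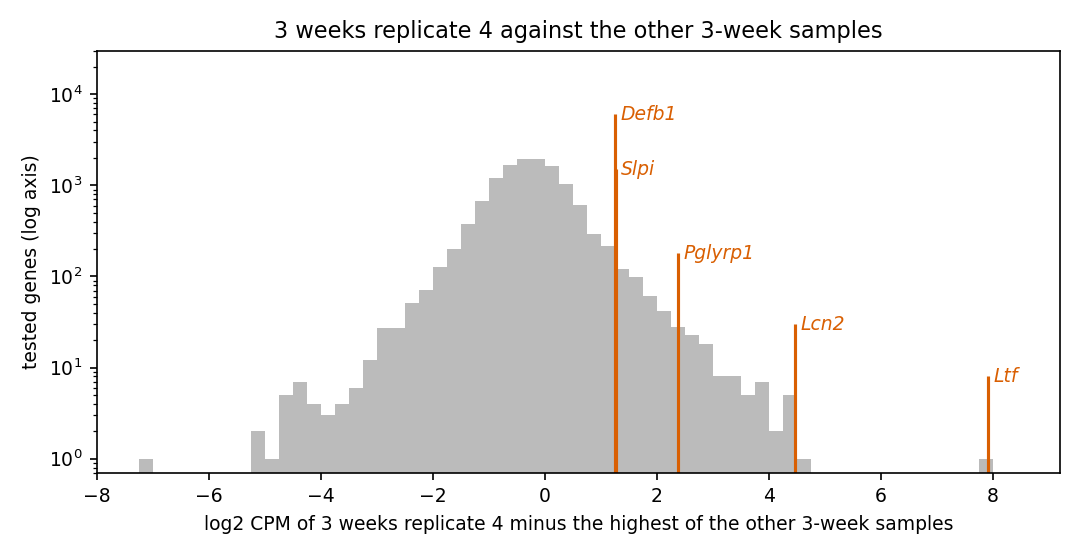
Histogram over 12590 tested genes (number of genes on a log axis) of the log2 CPM in 3 weeks replicate 4 minus the highest log2 CPM among the other 3-week samples. Lines mark 5 genes of interest, of which Ltf at 7.92 lies furthest to the right, Lcn2 lies at 4.48, Pglyrp1 at 2.37, and Slpi and Defb1 near 1.25. These 5 were chosen with such a sample known.

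Markers of other cells were read in the same library. Of 14 neutrophil markers, a list that includes Ltf and Camp, 4 had 0 reads in every sample (Mpo, Elane, Ngp and Camp). Without these 2 genes, the list summed to 0.195 RPKM in 3 weeks replicate 4, to between 0.346 and 0.856 RPKM at 1 week and to between 0.412 and 0.539 RPKM in the other 3-week samples. The summed level of these 12 markers was therefore lower there than in any other sample, although Itgam, at 0.176 RPKM, had its highest level there. Of the 39 reads on Itgam in all samples, only 5.13% mapped to a single place. It overlaps Gm49368 on the same strand, so its level is uncertain. The 9 macrophage markers summed to 14.2 RPKM in replicate 4, against 9.33 to 11.2 RPKM in the other 3-week samples and 16.0 to 21.5 RPKM at 1 week. In replicate 4, 12.5 RPKM of this sum came from Cd68. The 7 markers of Langerhans cells summed to 4.36 RPKM in replicate 4, to between 5.63 and 10.2 RPKM in the other 3-week samples and to between 1.93 and 3.60 RPKM at 1 week, and of these Cd207 had 0 reads throughout. The 8 fibroblast markers summed to 6.34 RPKM in replicate 4, against 3.09 to 4.16 RPKM in the other 3-week samples and 3.92 to 6.998 RPKM at 1 week. For the 9 markers of hair follicle and sebaceous gland the sum was 3244 RPKM in replicate 4, against 5396 to 6037 RPKM in the other 3-week samples and 4274 to 5271 RPKM at 1 week. Nearly all of it was the keratin gene Krt17, with 3183 RPKM in replicate 4, so the sum says little about these cell types. The 11 markers of differentiated KCs summed to 536 RPKM in replicate 4, against 12.2 to 34.3 RPKM in the other 3-week samples and 92.8 to 188 RPKM at 1 week, with 493 RPKM from Sprr2d. Of these 11, 3 (Ivl, Sprr2d and Tgm1) had their highest level in replicate 4. The part of these cell types, and of the intronic share of 2.38%, in the levels of Lcn2 and Ltf was not tested.

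The 5 genes did not follow each other alike when replicate 4 was set aside. Over 8 samples, Pearson's r of the log2 CPM was 0.76 between Lcn2 and Ltf. Over the 7 samples without 3 weeks replicate 4 it was -0.70. Slpi and Defb1 had r = 0.91 over 8 and 0.85 over 7 samples, and Ltf and Pglyrp1 had 0.92 and 0.81. These values describe 8 libraries of 2 groups and share the same samples. The genes most like each one over the 8 samples, among 11437 named genes that averaged 1 CPM or more, were Capn5, Ivd, Gm2a, Gna14 and Atrnl1 for Lcn2 (r from 0.980 to 0.984) and Angptl7, Zfp445, Trim25, Slc44a2 and Pfkfb2 for Ltf (r from 0.961 to 0.982). For Pglyrp1 they were Fam213a, Gk, Slc5a1, Sowahb and Slc25a48 (0.962 to 0.980). Slpi was most like Tbc1d15, Bscl2, Errfi1, Slfn2 and S100a14 (0.944 to 0.976), and Defb1 most like Rnf222, Id3, Itpripl1, Dgat2 and Lrrc28 (0.949 to 0.961). No gene was among the closest of more than 1 of the 5.

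Since these genes are known to respond to NF-κB, STAT3 and C/EBP factors, the letters of their recognition sites were searched on both strands of the 250 bases before each RefSeq start (GRCm38.p6, 32851 promoters). The table holds 8 of the 9 genes and not Defb1. The C/EBP-like letters TTGCNNAA were found in 6 of the 8 (Lcn2, Slpi, Saa1, Saa2, Saa3 and Ltf) and in 9.56% of all promoters. The windows of Saa1 and Saa2 are nearly identical, so their matches are not separate occurrences. The STAT letters TTCNNNGAA were in 0 of the 8 and in 7.02% of all promoters. The NF-κB motif was in Pglyrp1 alone and in 7.25% of all promoters. No 2 of these matches overlapped. The 30 bases around each match are shown on the strand of the gene, because Lcn2 and Ltf, with the largest distances of replicate 4, and Saa1, Saa2 and Saa3, with few or no reads, carry the same letters. Capitals mark the match, which is on the opposite strand in Slpi, Saa3, Ltf and Pglyrp1.
Lcn2, chr2:32387937-32387966, minus strand: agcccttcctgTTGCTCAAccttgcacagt
Ltf, chr9:111019206-111019235, plus strand: aggcaggcctaTTGGGCAAtagggtggggc
Slpi, chr2:164356728-164356757, minus strand: gaatttgtaTTGAGCAAtaggttagagttt
Saa1, chr7:46743144-46743173, minus strand: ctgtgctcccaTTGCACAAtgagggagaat
Saa2, chr7:46751639-46751668, plus strand: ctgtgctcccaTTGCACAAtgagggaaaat
Saa3, chr7:46715757-46715786, minus strand: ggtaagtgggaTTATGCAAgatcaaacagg
Pglyrp1 (NF-κB), chr7:18884587-18884616, plus strand: ggtctgggtcGGAAAGTCCCgcccaggtgt
The match starts 75 bases before the RefSeq start in Ltf and 216 bases before it in Lcn2, where it lies in an exon of the alternative transcript Lcn2-206 of the GENCODE annotation. No annotated exon covers the other windows. A match is a description of these letters and not a site shown to be bound.

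Related genes were read from 4 lists drawn up from their known roles. Of 40 other antimicrobial genes, 19 were tested, and 10 of the 21 that were not had 0 reads in every sample. Of the 19, 1 was higher and 3 were lower at 3 weeks (adjusted p under 0.05, edgeR), against 15.7% and 17.0% of all tested genes, and 15 did not pass. The median log2 fold change of the list was -0.22, against 0.03 for all tested genes. Cxcl14, an antimicrobial chemokine, fell from 10.7 ± 1.54 to 2.99 ± 0.397 RPKM (SD, n = 4 each), or by 1.67 on the log2 scale (SE 0.18, adjusted p = 0.000411, edgeR). It had similar levels in all 3-week samples, from 2.58 to 3.46 RPKM, with 2.76 RPKM in replicate 4. Duoxa1, needed for the peroxide-forming enzyme Duox1, fell by 0.57 on that scale (adjusted p = 0.0125, edgeR, from 0.00111 to 0.0587 over the alternatives). S100a9, a subunit of calprotectin, which binds zinc and manganese, fell by 1.94 (SE 0.63, adjusted p = 0.0431, edgeR), but its groups overlapped. Without 3 weeks replicate 4 its adjusted p was 0.0658, it was also over 0.05 without replicates 3 or 4 at 1 week or replicates 1 or 2 at 3 weeks, and over all alternatives it ran from 0.00464 to 0.127 (edgeR, DESeq2 or limma). Adm, which encodes adrenomedullin, a vasoactive peptide with antimicrobial activity, rose from 22.4 ± 6.11 to 42.0 ± 8.67 RPKM, by 1.06 (SE 0.21, adjusted p = 0.00515, edgeR). The reads on Adm that mapped uniquely were 13.0% of the total and gave 1.00. Adm overlaps Gm28863 and Duoxa1 overlaps Duoxa2 on the opposite strand.

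The highest genes of the list were Wfdc2, a protein of the same inhibitor family as Slpi, Adm and Defb14, a β-defensin. Wfdc2 had 250, 311 and 250 RPKM in replicates 1 to 3 at 3 weeks but 81.6 RPKM in replicate 4, against 77.3 to 185 RPKM at 1 week (log2 fold change 0.82, adjusted p = 0.156, edgeR). Without replicate 4 its value was 1.10 (adjusted p = 0.0129, edgeR), with a range of 0.0129 to 0.361 for the adjusted p in the alternatives. Its level in replicate 4 was the lowest at 3 weeks, the reverse of the order in Slpi. Defb14 had 11.0, 24.2 and 26.6 RPKM in replicates 1 to 3 and 98.4 RPKM in replicate 4, with 9.28 to 76.7 RPKM at 1 week (log2 fold change 0.20, adjusted p = 0.864, edgeR). Replicate 4 was thus the highest 3-week sample for Defb14 as for Defb1, and it was so for 3 of the 19 tested genes of the list.

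Of 32 other acute phase genes, 12 were tested, of which 1 was higher and 2 were lower at 3 weeks, against 15.7% and 17.0% of all tested genes (median log2 fold change 0.01). Most of the 20 others are known as liver proteins. Mt2, a metal-binding metallothionein, fell from 249 ± 97.5 to 64.5 ± 4.84 RPKM, with a fitted log2 change of -1.78 (SE 0.26, adjusted p = 0.00136, edgeR), while Mt1, its neighbour in the family, had 51.8 to 168 RPKM at 1 week, 60.9 to 83.0 RPKM at 3 weeks, and did not pass. Unique reads made up 68.3% of those on Mt2 and gave -1.85. Orm1, an orosomucoid, fell from 3.05 ± 0.425 to 0.734 ± 0.441 RPKM, with a fitted log2 change of -1.87 (adjusted p = 0.00976, edgeR). Cp had 0.243 to 0.615 RPKM at 1 week and 0.757, 0.820, 0.967 and 27.3 RPKM at 3 weeks. Its log2 fold change was 4.08 (SE 1.26, adjusted p = 0.0355, edgeR) with all samples and 1.03 (adjusted p = 0.0341, edgeR) without 3 weeks replicate 4. Over the alternatives its adjusted p ran from 0.0249 to 0.252, and it was over 0.05 with any of the 1-week samples left out. As in Lcn2, all 3-week samples were above all 1-week samples, and replicate 4 was far above the rest. Cp overlaps Hps3 on the opposite strand. Cd14, a co-receptor for bacterial lipopolysaccharide, had 4.44 ± 0.432 and 4.69 ± 0.628 RPKM.

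Steap4, a metalloreductase induced in inflammation, and Ccl20, an antimicrobial chemokine of the first list, were chosen after their values were seen. Steap4 had 0.238, 0.328 and 0.425 RPKM in replicates 1 to 3 at 3 weeks and 5.72 RPKM in replicate 4, against 1.86 to 3.16 RPKM at 1 week. Ccl20 had 0.264, 0.685 and 0.514 RPKM in replicates 1 to 3 and 5.65 RPKM in replicate 4, against 1.42 to 1.95 RPKM at 1 week. As in Ltf and Pglyrp1, replicate 4 was above and the other 3-week samples were below all 1-week samples. With all samples neither passed the threshold (adjusted p = 0.705 for Steap4 and 0.847 for Ccl20, edgeR), and without replicate 4 their log2 values were -2.76 and -1.55.

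Genes of the pathways that induce antimicrobial genes in KCs formed the third list, of 48 cytokines, receptors, adaptors and transcription factors, of which 42 were tested. With all samples 3 were higher and 5 lower at 3 weeks, against 15.7% and 17.0% of all tested genes, with a median log2 fold change of -0.11. Il1a, the IL-1α of KCs, fell from 159 ± 31.8 to 39.0 ± 4.38 RPKM, with a fitted log2 change of -1.86 (SE 0.17, adjusted p = 0.000293, edgeR). Its level in replicate 4, 40.8 RPKM, was within those of the other 3-week samples. Unique reads were 18.4% of its total and gave -1.90, and it overlaps Gm14023 on the opposite strand. Il1f5, which encodes the antagonist of the IL-36 receptor, fell from 1.69 ± 1.37 to 0.0731 ± 0.0437 RPKM, with a fitted log2 change of -4.37 (adjusted p = 0.00229, edgeR). Il1rl2, the IL-36 receptor, fell by 1.47 (adjusted p = 0.00387, edgeR) and Il1f6, an agonist of it, by 1.61 (adjusted p = 0.0342, edgeR, from 0.00348 to 0.0944 over the alternatives). The call of Il1f6 was lost with any sample left out except 1 week replicate 1 and 3 weeks replicate 4. Il1rn, the IL-1 receptor antagonist, was the other of the 5, with an adjusted p of 0.00590 to 0.0737 over the alternatives. Tlr2, a receptor for bacterial lipopeptides, rose from 5.59 ± 1.39 to 12.9 ± 0.733 RPKM, by 1.36 (SE 0.18, adjusted p = 0.000839, edgeR). Il10rb, a chain of the IL-22 and IL-10 receptors, rose by 1.02 (adjusted p = 0.000659, edgeR), and Tnfaip3, an inhibitor of NF-κB, was the other of the 3, with an adjusted p of 0.00807 to 0.120 over the alternatives. Nfkbia had 92.5 ± 12.9 and 86.5 ± 24.9 RPKM and Rela 36.2 ± 1.59 and 37.7 ± 7.90 RPKM, and neither passed.

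Replicate 4 was the highest 3-week sample for 30 of these 42 genes, against 33.6% of all tested genes, and by more than 2-fold for 11 of them, against 5.13%. Without it, 19 of 43 tested genes of the list were called, against 36.5% of 12810 tested genes, with 16 lower and 3 higher at 3 weeks, against 18.7% and 17.8%. The following 4 were chosen after their values were seen. Nfkbiz, which encodes IκBζ, a nuclear cofactor of NF-κB needed for the induction of Lcn2, had 15.2 to 19.7 RPKM at 1 week, and 4.06, 2.70 and 2.56 RPKM in replicates 1 to 3 at 3 weeks, but 16.1 RPKM in replicate 4. Its log2 fold change was -1.31 with all samples (adjusted p = 0.0927, edgeR) and -2.29 without replicate 4 (adjusted p = 0.000230, edgeR). Cebpb, a C/EBP factor, had 8.85, 10.5, 7.33 and 21.0 RPKM at 3 weeks and 19.6 to 37.6 RPKM at 1 week. Cebpd, another, had 1.13, 1.10, 1.80 and 4.45 RPKM at 3 weeks and 2.55 to 6.56 RPKM at 1 week. Il22ra1, the specific chain of the IL-22 receptor, had 0.125, 0.118, 0.0713 and 0.848 RPKM at 3 weeks and 0.246 to 1.19 RPKM at 1 week. In each of the 4, replicate 4 at 3 weeks lay within the range of the 1-week samples, and the other 3-week samples lay below it. In Lcn2 and Ltf, by contrast, replicate 4 was far above every 1-week sample.

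**Figure D4:**
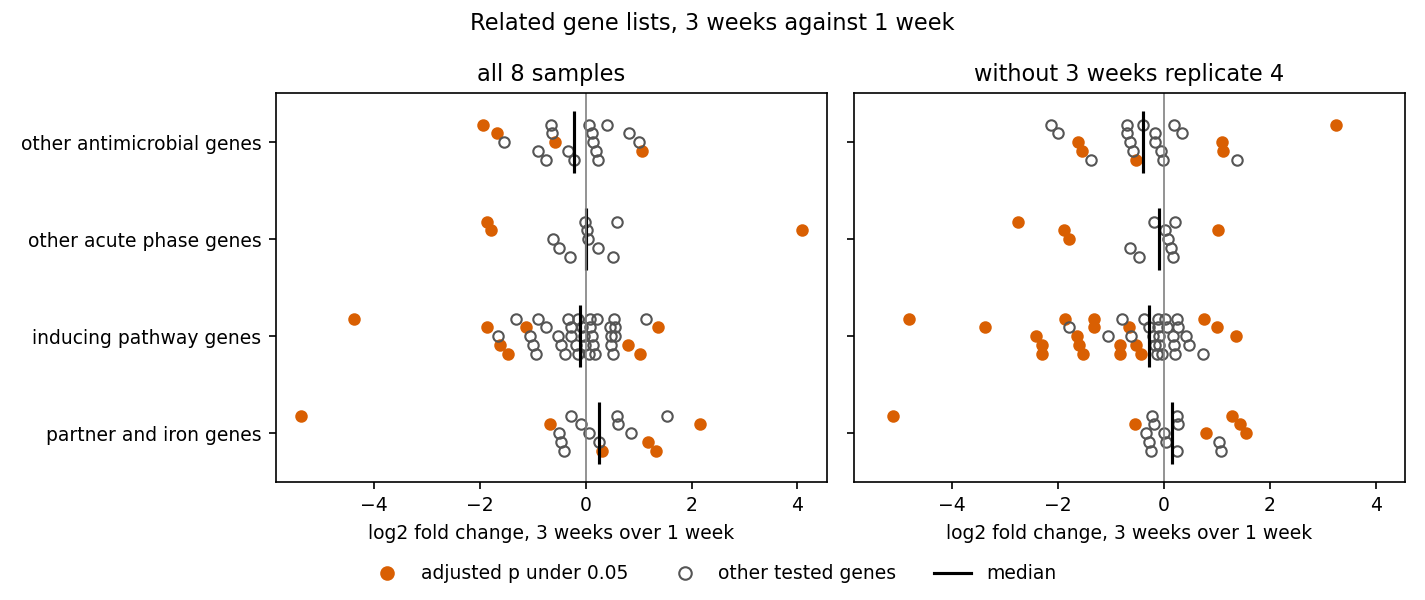
Log2 fold change of 3 weeks over 1 week for the tested genes of 4 lists, with all 8 samples (left) and without 3 weeks replicate 4 (right). Each circle is a gene, filled where the adjusted p from edgeR was under 0.05, and a line marks the median of the list. The number of filled circles below 0 among the inducing pathway genes is 5 on the left and 16 on the right.

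The fourth list held 30 partners of the encoded proteins and genes of iron handling, of which 17 were tested, with 4 higher and 2 lower at 3 weeks, against 15.7% and 17.0% of all tested genes, and a median log2 fold change of 0.26. Klk7, one of the epidermal kallikreins, the proteases that cut cathelicidin, fell from 55.8 ± 61.4 to 1.18 ± 0.584 RPKM, with a fitted log2 change of -5.37 (SE 1.10, adjusted p = 0.00613, edgeR), with 1-week samples that ran from 5.05 to 134 RPKM. Scarb1, a receptor for lipoproteins that also binds serum amyloid A, fell by 0.68 (adjusted p = 0.0114, edgeR). Plscr1, a membrane protein that binds Slpi, rose from 11.0 ± 2.16 to 24.6 ± 4.53 RPKM, by 1.34 (SE 0.20, adjusted p = 0.00158, edgeR), and overlaps Mir6386 on the opposite strand. The ferritin light chain gene Ftl1 rose by 1.18 (SE 0.35, adjusted p = 0.0295, edgeR), with an adjusted p of 0.00119 to 0.0879 over the alternatives, and lost its call without any sample except 1 week replicate 1 and 3 weeks replicate 4. It had 2410, 2821 and 3107 RPKM in replicates 1 to 3 at 3 weeks and 1012 RPKM in replicate 4, against 941 to 1413 RPKM at 1 week, and its unique reads were 8.56% of the total. The heavy chain gene Fth1 had 1105, 1922, 2448 and 4111 RPKM at 3 weeks, so that replicate 4 was lowest for Ftl1 and highest for Fth1. Ireb2, which regulates iron genes, rose by 0.30 (adjusted p = 0.0475, edgeR), with an adjusted p of 0.00790 to 0.372 over the alternatives. Slc22a17, a receptor for lipocalin-2, was called as higher too (adjusted p = 0.0162, edgeR, from 0.00193 to 0.0888 over the alternatives), at under 1 RPKM in all samples, with 0.799 RPKM in replicate 4 and 0.166 to 0.283 RPKM in the other 3-week samples.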

How the data were processed

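KC samples were grouped by weeks of cultivation as the labels give it, with 4 samples at 1 week and 4 at 3 weeks. The authors prepared poly(A) libraries and aligned trimmed reads to GRCm38 in the CLC Genomics Workbench. They deposited count columns of whole reads per gene without normalization, and RPKM values written with decimal commas, which equal exon reads per exon length and mapped reads. Use of the strand is not given in the sources used here.

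Total exon reads were fitted in edgeR 4.0.16 (R 4.3.3) after filterByExpr and TMM normalization. The test was by glmQLFit and glmQLFTest without pairing, with Benjamini-Hochberg adjustment over all tested genes and a threshold of 0.05. The study names unpaired tests in general, but it also states that batches of KCs were shared between both times. Shared preparations were not modelled in this fit, and blocks were used only among the alternatives. Standard errors were derived from the F statistics. p-values measure the spread between the 4 samples of a group. The genes of interest and the lists were chosen with earlier results of these data known, so no list is independent evidence. Named from each list were up to 6 called genes of largest change with a mean of at least 1 RPKM at either time, and the 3 of highest mean. The few exceptions are marked or were named to complete a count of 5 or fewer. Genes most alike were ranked by Pearson's r of log2 CPM (prior count 2), predicted genes left out. On simulated counts of the comparison of 3 weeks with 1 week over 12590 genes, 109 of 200 changed genes were recovered (82.0% of 4-fold and 27.0% of 2-fold changes), with 4 false calls. The simulation held no single outlying library and no shared preparations, and the real fit called far more genes (4127). These rates need therefore not hold for the real data. Counts of any 2 samples of the same group differed by more than sampling noise. Alternatives were DESeq2 1.42.0, upper-quartile normalization, other filters and read columns, limma 3.58.1 on log2(RPKM + 0.1) or log2(RPKM + 1), blocks by replicate or preparation, and the omission of each sample. In 5 cases a listed symbol was matched through a RefSeq synonym. Motifs and figures were made with Python 3.11.15 and matplotlib 3.10.9.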

Additional observations from a re-analysis of the deposited data

Results flagged for a closer look

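In each group of 4 samples, the highest and the lowest RPKM were compared with the rest. This was done for the 9 genes and the named list genes. Of 66 groups, 9 held a sample that stood apart by Dixon's ratio. Its limit flags about 1 in 20 groups of independent normal values. That rate need not hold here, since RPKM values need not be normal and the genes share the same libraries. Of the 9 flagged groups, 5 are of genes chosen with such a sample known, so that their number is not set against chance, and 4 are of list genes. In 7 of the 9 it was the highest value of 3 weeks replicate 4. These were Lcn2 (419 RPKM, next 16.2), Ltf (55.4, next 0.194), Pglyrp1 (3.63, next 0.563), Saa1 (0.137, from 5 reads, next 0), Cp (27.3, next 0.967), Cd14 (5.63, next 4.47) and Il1rl2 (1.53, next 0.991). The others were Saa2 in 3 weeks replicate 3 (0.0242 RPKM, from 1 read) and Il1a in 3 weeks replicate 1, which was the lowest of its group (32.5 RPKM, next 40.8). In Saa1 and Saa2 the ratio is 1 by construction, since the other samples of the group had 0 reads. The 1 read of Saa2 lies under the limit of 3 reads. The 5 reads of Saa1 lie above it, but only 3 of them mapped to a single place.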

How the results depend on the processing

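The log2 fold change of Lcn2 was positive in all 18 alternatives, from 1.40 to 4.88. That of Ltf was positive in 15 of 17 and negative with the replicate block (-0.34) and without 3 weeks replicate 4 (-1.92). Slpi was positive in 5 and negative in 13 of 18, Defb1 in 10 and 8, and Pglyrp1 in 13 and 5. The count of the 9 genes past the threshold (1) was 0 in limma on either RPKM scale, with the replicate block and with the preparation block. At an unadjusted p under 0.05 it was 0 in limma on log2(RPKM + 1) and 1 in each of the other 3. DESeq2 also gave 0 at both thresholds, but it gave no p for Lcn2 and Ltf, so these could not be counted there. With each sample left out the count ran from 0 (without any of the 1-week samples) to 3 (without 3 weeks replicate 4). Called antimicrobial genes numbered 7 without a filter on low counts and 3 to 7 with samples left out (7 without 1 week replicate 2). Called inducing pathway genes numbered 5 to 19 with samples left out (5 without 1 week replicate 4, 19 without 3 weeks replicate 4). The cause was not tested. Acute phase genes (2 to 4), partner and iron genes (4 to 6) and all genes (3015 to 4861) kept counts within 1.5 times of theirs. Label numbers 1 and 4 join samples of the same preparation (46 and 90), and numbers 2 and 3 join different ones. The deviations of same-numbered samples correlated by -0.23, -0.15, -0.15 and 0.25. By preparation they correlated by -0.23 (46), 0.20 (49) and 0.25 (90). The label numbers thus did not join the same preparation throughout, and the correlations do not show a pairing by preparation throughout either. With the replicate block 2867 genes were called in place of 4127, the log2 fold change of Lcn2 was 2.45, and Duoxa1 (adjusted p = 0.0587) and Slc22a17 (0.0642) were not called. With the 3 shared preparations as a block it was 3.07 for Lcn2, and Slc22a17 was not called either. At these depths, levels of Saa1, Saa2 and Camp under 3 reads were not detectable.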
